A study of Mus musculus with 8 samples.

Results

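A set of 10 genes that mark the notochord and the nucleus pulposus was followed in sorted skeletal cells of the spine and of the long bones: T, Noto, Shh, Foxa2, Krt8, Krt18, Krt19, Cd24a, Car3 and Hopx. They were chosen by name, as a check for cells of the intervertebral disc, and all 10 were found among the 22053 rows of the deposited table of protein-coding genes. Bulk RNA-seq covered 8 libraries, all from wild-type (WT) mice at postnatal day 10, with 4 of candidate vertebral skeletal stem cells from the spine (vSSC) and 4 of long bone skeletal stem cells from femur and tibia (lbSSC). Each group held 2 male and 2 female libraries. Cells of both sites were sorted as CD31-TER119-CD45-Thy-6C3-CD200+CD105-, so a gate shared by both groups limits which cells were seen. Whether a library holds 1 animal or a pool is not in the labels, which name biological replicates, and p-values therefore rest on the spread between libraries.

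The notochord is the rod of cells that organises the embryonic midline, and the cells of the nucleus pulposus, the gel-like core of the intervertebral disc, descend from it. T (brachyury), Noto and Foxa2 are its transcription factors and Shh is the signal it sends to the neural tube and the sclerotome. Krt8, Krt18 and Krt19 are keratins of simple epithelia that notochordal cells also make, Cd24a encodes a surface glycoprotein, Car3 a carbonic anhydrase and Hopx a homeodomain-only protein that does not bind DNA.

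Levels are in FPKM, a fragment count scaled for transcript length and library size, which allows genes to be compared. Library sums lay between 517314 and 571869 FPKM in vSSC and between 460302 and 521489 in lbSSC. In vSSC 10337 to 10578 genes per library reached 1 FPKM, and in lbSSC 10644 to 10753. Both measures thus went with the site, and the sums overlapped. The depth in reads is unknown from FPKM, and with it the counting error of single values. After a mean FPKM, ± gives the SD of 4 libraries, and after a difference on the log2(FPKM + 1) scale, always vSSC minus lbSSC, it gives the SE of the limma fit. Of the sorting markers, Cd200 lay between 84.2 and 143 FPKM, while Pecam1, Ptprc and Thy1, which encode CD31, CD45 and Thy-1, stayed under 1 FPKM in all 8 libraries. Of these Ptprc was apart between the sites, at 0.331 to 0.949 FPKM in vSSC and 0.025 to 0.0688 in lbSSC. Enpep, which encodes 6C3, stood at 0.111 to 0.484 FPKM in vSSC and 0.709 to 1.76 in lbSSC, and Eng, which encodes CD105, reached 1.17 FPKM in lbSSC replicate 2. The chondrocyte marker Col2a1 reached 10866 ± 3960 FPKM in vSSC and 14146 ± 4270 in lbSSC (SD, n = 4 each). Red cell transcripts were present in spite of the gate, with Hbb-bs, a beta globin, between 2436 and 5482 FPKM.

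The 250 bases before the annotated start are shown for Foxa2, Hopx and Noto, because these were the 3 of the 6 genes with a RefSeq promoter entry (T, Noto, Foxa2, Krt8, Krt18 and Hopx) that held a forkhead-type word. The sequences are from RefSeq on GRCm38.p6, written 5′ to 3′ on the gene's strand, and the capitals mark the word. The word searched on both strands was TGTTTNC or, with another last letter, TGTTTNT, each with A or G at N, and 15.7% of all 32851 windows of this length held at least 1 match.
Foxa2, chr2:148046970-148047219, minus strand: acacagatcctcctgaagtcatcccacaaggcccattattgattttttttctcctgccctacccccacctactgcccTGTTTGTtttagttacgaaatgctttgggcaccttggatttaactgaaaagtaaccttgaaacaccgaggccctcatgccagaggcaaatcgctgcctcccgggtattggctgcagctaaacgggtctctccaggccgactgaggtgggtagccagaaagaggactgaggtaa
Hopx, chr5:77115124-77115373, minus strand: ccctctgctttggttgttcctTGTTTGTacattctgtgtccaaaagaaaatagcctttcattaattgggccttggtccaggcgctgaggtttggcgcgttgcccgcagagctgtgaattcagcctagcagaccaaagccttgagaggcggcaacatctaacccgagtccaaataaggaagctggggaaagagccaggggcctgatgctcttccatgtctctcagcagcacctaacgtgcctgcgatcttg
Noto, chr6:85423636-85423885, plus strand: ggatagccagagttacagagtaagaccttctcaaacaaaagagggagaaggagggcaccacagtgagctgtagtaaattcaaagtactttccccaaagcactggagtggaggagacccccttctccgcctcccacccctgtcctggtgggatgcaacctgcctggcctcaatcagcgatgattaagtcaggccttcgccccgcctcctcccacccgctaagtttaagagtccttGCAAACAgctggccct
In Foxa2 the word TGTTTGT began 173 bases before the start, and in Hopx the same word began 229 bases before it. TGTTTGT alone occurred in 5.84% of all windows. In Noto the word stood 16 bases before the start on the other strand, as TGTTTGC. Neither the GLI word TGGGTGGTC (0.225% of windows) nor the T-box word AGGTGTGA (1.12%) was found in any of the 6 windows. Foxa2 and Hopx are 2 genes that were detected in every library, whereas Noto was listed at 0 throughout. Among the 6 genes with a window, the word was thus held by genes at both ends of the range. Cd24a and Car3, with higher mean levels, had no window and were not searched.

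T, Noto and Shh were at or near 0. Noto, a homeobox factor of the node and notochord, was listed at 0 FPKM in all 8 libraries, as were 25.7% of the rows in the table. For Shh all 4 vSSC libraries and 3 of lbSSC were listed at 0, with 0.0211 FPKM in lbSSC replicate 2. T was listed at 0 in vSSC replicates 1 and 3, at 0.332 FPKM in vSSC replicate 2 and at 0.0858 in vSSC replicate 4, and at 0 in all 4 lbSSC libraries. The values of T thus came from the spine alone but from 2 of its 4 libraries, and the sites overlapped at 0. A two-sided exact permutation test on log2(FPKM + 1) gave p = 0.429, where 4 libraries against 4 cannot go below 0.0286. With values above 0 in only 2 libraries, both of the spine, that p was fixed whatever their size. The test therefore could not show a difference of T. For Shh the same exact test gave p = 1, which a single value above 0 also fixes in advance.

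The keratins of the notochord were detected at trace levels, with no gain in spinal cells that passed a test. Krt8, the type II partner of the pair, stood in vSSC replicates 1 to 4 at 0, 0.0605, 0.214 and 0.546 FPKM and in lbSSC replicates 1 to 4 at 0.368, 0.421, 0.301 and 0.36. The lbSSC values were close together and lay within the range of vSSC. Krt18, its type I partner, stood at 0.331, 0, 0 and 0.0574 FPKM in vSSC and at 0.0806, 0.448, 0.0238 and 0.119 in lbSSC. Krt19, a type I keratin that also marks nucleus pulposus cells, was listed at 0 in all lbSSC libraries and in vSSC replicates 1 and 3, with 0.144 FPKM in vSSC replicate 2 and 0.264 in vSSC replicate 4. The libraries with Krt19 were those with T. Two-sided exact permutation tests on log2(FPKM + 1) gave p = 0.257 for Krt8, p = 0.486 for Krt18 and p = 0.429 for Krt19. As with T, the p of Krt19 was fixed by how few libraries had a value, so that test could not show a difference. In the limma fit without a filter on low values, which called 13.5% of 16378 genes, the adjusted p was 0.338 for Krt8, 0.683 for Krt18, 0.271 for Krt19, 0.347 for T and 0.842 for Shh.

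**Figure D1:**
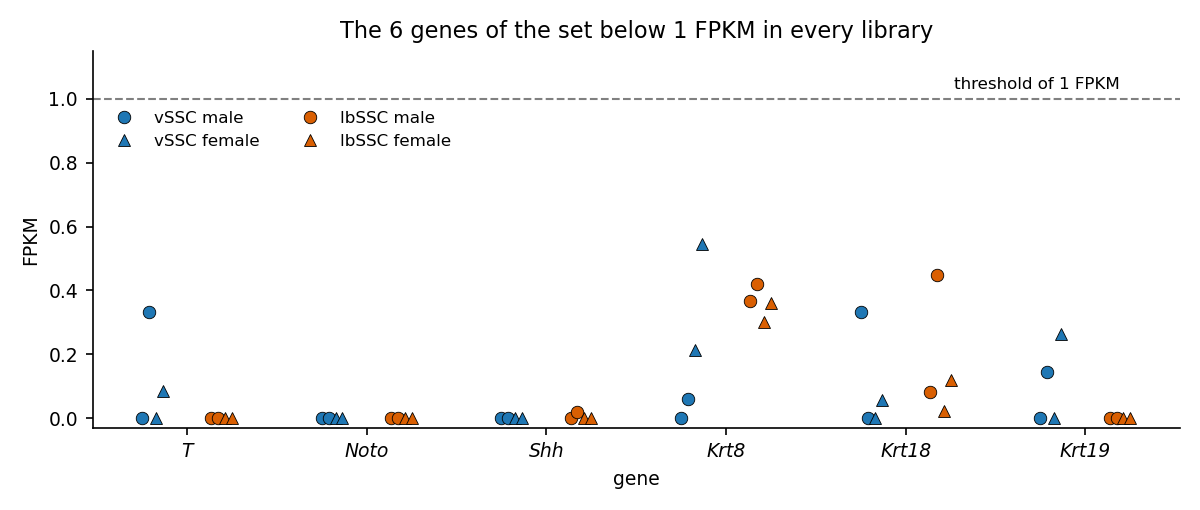
FPKM of T, Noto, Shh, Krt8, Krt18 and Krt19 in each library, by site and sex, on a linear axis with a dashed line at 1 FPKM. The highest point is Krt8 in vSSC replicate 4 at 0.546 FPKM, and T and Krt19 have values above 0 in vSSC alone.

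Krt8 and Krt18 lie near each other on chromosome 15 of GRCm38, at 101996711 to 102004342 and 102028216 to 102032026. Transcripts of Krt8 share 941 bases at 98.6% identity with the pseudogene Krt8-ps, and those of Krt18 share 1267 bases at 90.5% with Gm5200, so low values of both carry the uncertainty of shared reads. Of 54 keratin rows in the table, 29 were listed at 0 in all libraries and 4 reached 1 FPKM in any. The most abundant was Krt10, at 5.11 ± 0.535 FPKM in vSSC and 6.42 ± 1.33 in lbSSC (limma, adjusted p = 0.243), followed by Krt87 and Krt7. Krt87, under the filter, was apart between the sites, at 0.995 to 1.46 FPKM in vSSC and 0.248 to 0.688 in lbSSC. Krt5 was apart the other way, at 0 in all vSSC libraries and 0.0975 to 0.629 FPKM in lbSSC. In the limma fit without a filter, which called 13.5% of genes, the adjusted p was 0.0259 for Krt87 and 0.0453 for Krt5. By mean level Krt8, Krt18 and Krt19 ranked 6, 9 and 12 among them. Of 9 markers of simple and stratified epithelia 7 were under 1 FPKM in all libraries, with Krt14, a basal keratin, and the claudin Cldn4 listed at 0 throughout. The exceptions were the simple epithelium genes Cldn7, at up to 4.75 FPKM, and Krt7, at up to 2.17. Mesothelium markers were under 1 FPKM in 4 of 4 genes, and Upk3b was listed at 0 throughout.

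The other 4 genes, Cd24a, Car3, Foxa2 and Hopx, lay above 1 FPKM in all 8 libraries. All 4 passed the site test (limma on log2(FPKM + 1) over 10729 genes with at least 1 FPKM in 4 or more libraries, Benjamini-Hochberg adjusted p under 0.05). Cd24a, Foxa2 and Hopx were higher and Car3 lower in vSSC. In the same test 23.5% of all genes were called, 14.3% higher and 9.17% lower in vSSC. That count of 2518 genes dropped to 1673 or 1646 when vSSC replicate 1 or 3 was left out, and to 1534 or 1589 when lbSSC replicate 3 or 4 was. Calls toward vSSC made up 60.9%, against 51.9%, 49.4% and 42.4% under median-of-ratios scaling, quantile normalization and rescaling to one sum. The median difference was 0.61 over these 4 and 0.08 over all genes tested. In bulk RNA of sorted cells, fewer cells that express a gene and less of its RNA per cell cannot be told apart.

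Cd24a was by far the most abundant gene of the set. It stood at 603, 472, 515 and 445 FPKM in vSSC replicates 1 to 4 and at 318, 278, 211 and 175 in lbSSC replicates 1 to 4. Every vSSC library lay above every lbSSC library, as in 15.8% of all genes tested, while the sites did not overlap in either direction in 25.8%. The means were 509 ± 69.4 and 246 ± 64.7 FPKM (SD, n = 4 each), a ratio of 2.07. The difference on the log2(FPKM + 1) scale was 1.08 ± 0.18 (SE, 95% interval 0.69 to 1.47, limma adjusted p = 0.00154). Within a library, Cd24a ranked between the percentiles 98.3 and 99.3 of all rows. It lies on chromosome 10 at 43579169 to 43584262, and its transcripts share 218 bases at 96.8% identity with the processed pseudogene Gm6212 and 259 bases at 92.3% with another, Gm15352.

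CD24 is also known from maturing blood cells, among them neutrophils, B cell precursors and red cell precursors, and some markers of these cells moved with the site. The summed FPKM of 8 neutrophil markers ran from 296 to 457 in vSSC and from 28.6 to 126 in lbSSC. Of 7 tested 6 were higher in vSSC, against 14.3% of all genes tested. An example was Ngp, a granule protein (47.7 ± 7.57 against 9.11 ± 5.34 FPKM). Ltf, another of the 6, reached 1 FPKM in all vSSC libraries but not in all of lbSSC, so that the filter favoured its high site. The 7 B lineage markers summed to between 12.8 and 23.3 FPKM in vSSC and between 2.34 and 10.7 in lbSSC. Among them Ebf1 (5.16 ± 3.47 FPKM in vSSC) reached 1 FPKM in all libraries and was higher in vSSC, while Cd79a (5.19 ± 1.18 against 0.999 ± 0.826) and Cd79b did so in all of vSSC but not of lbSSC, so that the filter favoured their high site. The precursor markers Vpreb1 (0.767 against 0.904 FPKM) and Igll1 (0.484 against 0.53) overlapped between the sites and lay under the filter. Each of the 7 erythroid markers found had a lower mean in vSSC, but only 2 of 7 were called lower, against 9.17% of all genes tested. Slc4a1, the red cell anion exchanger, was among the called ones, while the beta globin Hbb-bs was not (limma adjusted p = 0.199). The erythroid sums overlapped between the sites, at 3817 to 5371 FPKM in vSSC and 4282 to 8823 in lbSSC. No marker of these 3 lists was at 0 in all libraries. The part of such cells in the Cd24a values was not tested. The share of ribosomal protein genes in the FPKM sum, from 18.3% to 21.4% in vSSC and from 15.7% to 18.4% in lbSSC, also moved with the site. Once this share entered the fit (added after seeing the data), Cd24a differed by 0.50 (limma adjusted p = 0.114). The share nearly separated the sites, so such a fit cannot tell its part from that of the site.

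Car3, a cytosolic carbonic anhydrase, fell in vSSC. It stood at 22.5, 19.2, 27.6 and 15 FPKM in vSSC replicates 1 to 4 and at 125, 121, 97.8 and 42.1 in lbSSC replicates 1 to 4. The lowest lbSSC library, replicate 4, still lay above the highest vSSC library, an order found in 9.99% of all genes tested. The means were 21.1 ± 5.34 and 96.5 ± 38.2 FPKM, which is 4.58 times more in lbSSC, and the log2 difference was -2.06 ± 0.30 (95% interval -2.72 to -1.40, limma adjusted p = 0.00074). Without lbSSC replicate 4 the difference was -2.41, and with the ribosomal protein share in the fit it was -3.01. Car3 lies on chromosome 3 at 14863512 to 14872523.

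Car3 is abundant in adipocytes and in slow muscle. Adipocyte markers were low beside it, and each one with any value had a lower mean in vSSC, as Car3 did. The 7 adipocyte markers summed to between 1.19 and 4.04 FPKM in vSSC and between 4.63 and 14.6 in lbSSC, below Car3 in every library, and Cfd and Cidec were listed at 0 throughout. Of the list 2 were tested, Adipoq and Lpl, and 2 were lower in vSSC, against 9.17% of all genes tested. Adipoq, the adipocyte hormone adiponectin, averaged 0.547 ± 0.528 against 3.62 ± 1.55 FPKM. Adipoq reached 1 FPKM in all lbSSC libraries but not in all of vSSC, so its place among the tested genes depended on the site where it is high. Lpl reached 1 FPKM in all libraries (1.29 ± 0.324 against 2.49 ± 0.691, limma adjusted p = 0.0322), and its call was lost under quantile normalization. Plin1, Fabp4 and Pparg lay under the filter and overlapped between the sites. The muscle list held no slow muscle gene, and of its 7 markers 6 were under 1 FPKM in all libraries, with Myh3 listed at 0 throughout. The exception was Tnnt3, a troponin of fast muscle, which went against Car3 with 17.9 ± 3.08 FPKM in vSSC and 3.13 ± 0.408 in lbSSC. Tnnt3 stood above Car3 in vSSC replicate 4 (15.8 against 15 FPKM). Of the 6 under 1 FPKM, Des went with Car3 and was apart between the sites. Its values were 0.203 to 0.225 FPKM in vSSC and 0.426 to 0.731 in lbSSC (two-sided exact permutation test, p = 0.0286). Ckm, Myh8, Myl1 and Actn3 overlapped at or near 0. The part of such cells in the Car3 values was not tested.

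Other carbonic anhydrases were called in both directions, too few for a result on the family. Of the 14 rows beside Car3 7 were tested, of which 1 was higher and 2 were lower in vSSC. Of all genes tested, 14.3% were higher and 9.17% lower. Car2, an abundant cytosolic form of red cells and osteoclasts, was at 24.3 ± 4.44 against 62 ± 29.5 FPKM (-1.22 ± 0.27, limma adjusted p = 0.00823), and Car8, a related protein without enzyme activity, at 43.4 ± 2.35 against 19.2 ± 3.9 (1.16 ± 0.15, limma adjusted p = 0.000255). Car12, the family member used to mark nucleus pulposus cells, averaged 9.61 ± 1.68 FPKM in vSSC against 9.84 ± 1.19 (-0.04 ± 0.15, limma adjusted p = 0.872).

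**Figure D2:**
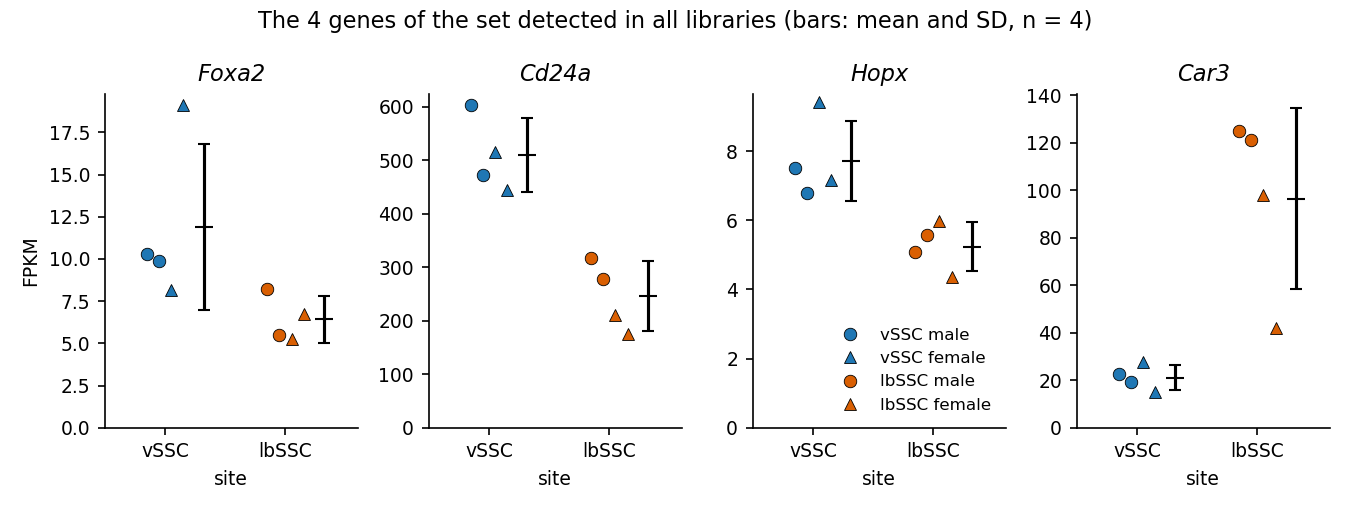
FPKM of Foxa2, Cd24a, Hopx and Car3 in each library, 1 panel per gene with its own linear axis from 0, with circles for male and triangles for female libraries and bars for the mean and SD of each site (n = 4). The sites are apart in Cd24a, Hopx and Car3, and in Foxa2 the lowest vSSC library (8.19) lies just under the highest lbSSC library (8.23).

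Foxa2 was the notochord factor that these cells did express. It stood at 10.3, 9.86, 8.19 and 19.1 FPKM in vSSC replicates 1 to 4 and at 8.23, 5.48, 5.26 and 6.73 in lbSSC replicates 1 to 4. The sites overlapped, and vSSC replicate 4 lay well above its group. The means were 11.9 ± 4.93 and 6.42 ± 1.37 FPKM, a ratio of 1.85, and the log2 difference was 0.74 ± 0.23 (95% interval 0.25 to 1.24, limma adjusted p = 0.0362). The call was lost in 10 of 21 alternatives, where the adjusted p ran up to 0.122, among them each fit without vSSC replicate 1 or 2 or lbSSC replicate 2, 3 or 4 (0.0508 to 0.0969), and the difference without vSSC replicate 4 was 0.50 (limma adjusted p = 0.047). Foxa2 lies on chromosome 2 at 148042877 to 148046969, with no other gene of GENCODE M21 overlapping it.

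Of the Foxa factors, Foxa3 was also higher in vSSC. Foxa3, a related factor that growth plate chondrocytes share with Foxa2, averaged 20 ± 2.24 FPKM in vSSC against 10.9 ± 0.815 (0.81 ± 0.12, limma adjusted p = 0.00074), and the sites did not overlap. Foxa1, the paralogue that acts beside Foxa2 in endoderm and floor plate, was listed at 0 in 6 libraries and reached 0.289 FPKM at most. Foxa2 is known from prehypertrophic and hypertrophic chondrocytes, whose markers split. Of 7 tested, 2 were higher in vSSC, Ihh and Pth1r, and 1 was lower, Col10a1, against 14.3% and 9.17% of all genes tested.

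Hopx was the gene with the smallest difference among the 4. It stood at 7.5, 6.79, 9.41 and 7.17 FPKM in vSSC replicates 1 to 4 and at 5.07, 5.56, 5.98 and 4.35 in lbSSC replicates 1 to 4. The sites did not overlap, but the highest lbSSC library lay within 1 FPKM of the lowest vSSC library. The means were 7.72 ± 1.16 and 5.24 ± 0.698 FPKM, a ratio of 1.47, and the log2 difference was 0.48 ± 0.14 (95% interval 0.17 to 0.79, limma adjusted p = 0.0323). The call was lost in 9 of 21 alternatives, among them each fit without vSSC replicate 1 or 3 or lbSSC replicate 1 or 4 (adjusted p 0.0563 to 0.095), and the difference was 0.32 (adjusted p = 0.525) once the ribosomal protein share entered the fit. Hopx lies on chromosome 5 at 77086988 to 77115121 and shares 388 identical bases with its antisense gene Hopxos. The library kit does not mark the strand, so reads of the pair cannot be told apart.

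In both sites the order of levels was Cd24a, Car3, Foxa2 and Hopx. In vSSC Car3 (15 to 27.6 FPKM) and Foxa2 (8.19 to 19.1) overlapped, and so did Foxa2 and Hopx (6.79 to 9.41). In lbSSC Cd24a, Car3 and Foxa2 were apart from each other, while Foxa2 (5.26 to 8.23) and Hopx (4.35 to 5.98) overlapped. In vSSC replicate 4, the library with most Foxa2, Foxa2 stood above Car3.

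Hedgehog genes were expressed, with Ihh as the abundant ligand. The 3 ligands differ in where they are made: Shh in the notochord, Ihh in the growth plate and Dhh in nerve sheath and gonad. Ihh averaged 94 ± 8.92 FPKM in vSSC against 32.9 ± 8.01 (1.51 ± 0.16, limma adjusted p = 6.93e-05), while Dhh reached 1.48 FPKM at most. Of 14 pathway genes 11 were tested, and 3 were higher and 4 lower in vSSC, against 14.3% and 9.17% of all genes tested. Gli2, among the lower ones, and Gli3, which was not called, reached 1 FPKM in all libraries of lbSSC but not of vSSC. The higher ones were Ihh, Hhip, a decoy receptor (1.02 ± 0.11), and Ptch1, the receptor and a transcriptional target (62.3 ± 16 against 36.2 ± 1.14 FPKM, limma adjusted p = 0.00642, a call lost under quantile normalization). The coreceptors Boc (-1.51 ± 0.13) and Gas1 (-1.40 ± 0.13) were among the lower ones. Gli1, another target, was at 5.25 ± 1.34 and 6.08 ± 0.86 FPKM and did not pass (-0.20 ± 0.17, limma adjusted p = 0.422).

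**Figure D3:**
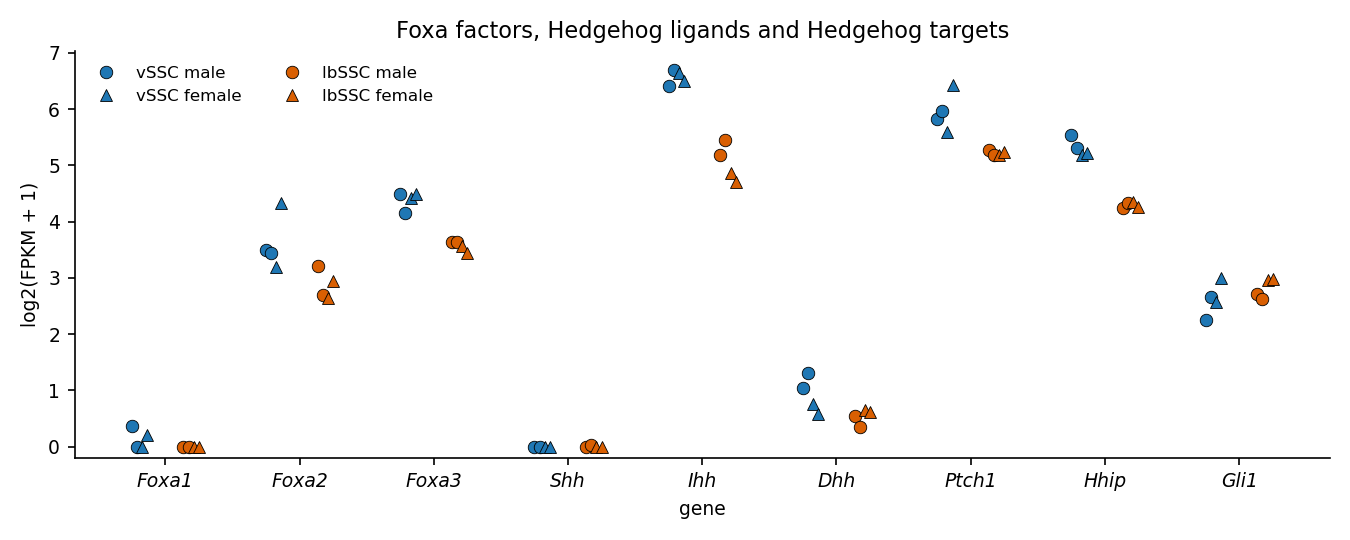
Levels on the log2(FPKM + 1) scale of the 3 Foxa factors, the 3 Hedgehog ligands and the Hedgehog target genes Ptch1, Hhip and Gli1, 1 point per library by site and sex. Foxa1 and Shh lie at or near 0 in all libraries, and Foxa3, Ihh, Ptch1 and Hhip are apart between the sites.

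Further genes of the notochord and nucleus pulposus, listed apart from the 10, held changes in both directions. Of 20 genes listed 19 were in the table and 16 were tested, 3 were higher and 3 lower in vSSC, with a median difference of -0.08 where all genes had 0.08. For comparison, 14.3% of all genes tested were called higher and 9.17% lower. Higher were Nog, a secreted antagonist of bone morphogenetic proteins made by the notochord (15.2 ± 3.54 against 5.78 ± 2.09 FPKM, 1.27 ± 0.21), the glucose transporter Slc2a1 (59 ± 1.36 against 38.4 ± 1.32, 0.61 ± 0.09) and the glypican Gpc3, whose call was lost under each of 3 other scalings. Lower were the adhesion molecule Cdh2, N-cadherin (1.68 ± 0.426 against 5.16 ± 1.48 FPKM, -1.18 ± 0.21), the proteoglycan Vcan (1.29 ± 0.218 against 3.08 ± 0.482, -0.83 ± 0.15) and Chrd, another notochord antagonist of bone morphogenetic proteins. Vcan reached 1 FPKM in all lbSSC libraries but not in all of vSSC, so that the filter favoured its high site. Col2a1, made by disc and cartilage cells alike, differed by -0.41 ± 0.28 (limma adjusted p = 0.301). Of 6 genes of the annulus fibrosus and tendon, Tnmd (-0.79 ± 0.20) and Fmod (-0.62 ± 0.20) were lower and none was higher, with 23.5% of all genes called in either direction.

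**Figure D4:**
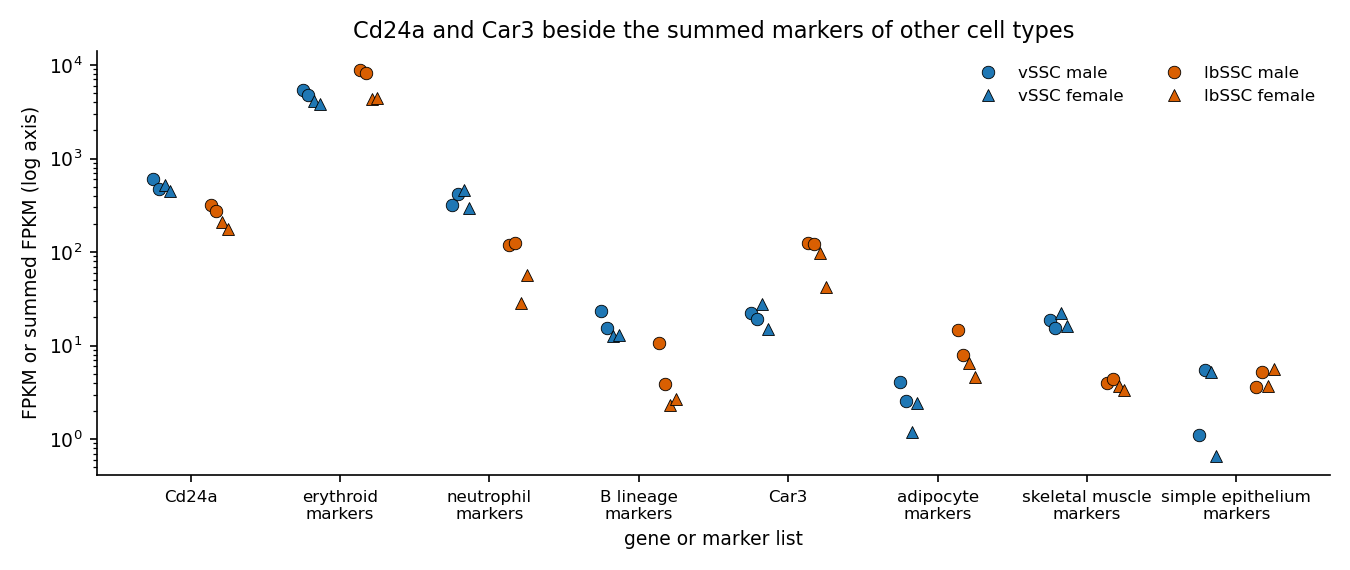
FPKM of Cd24a and Car3 beside the summed FPKM of marker lists of other cell types, 1 point per library by site and sex, on a log axis. Neutrophil, B lineage and muscle sums lie higher in vSSC, with the muscle sum carried by Tnnt3. The adipocyte sum lies lower in vSSC, and below Car3 in every library.

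The site differences did not pass a test of dependence on sex. In lbSSC the 2 male libraries had more Cd24a (mean 298 FPKM) than the 2 female ones (193), and the means of Car3 were 123 and 69.9. In vSSC the means of Cd24a were 538 and 480 and those of Car3 20.8 and 21.3. Blood cell markers moved with sex in lbSSC, where the erythroid sums were 8823 and 8280 FPKM in males against 4282 and 4485 in females. The neutrophil sums there were 119 and 126 against 28.6 and 57.4. In vSSC the erythroid sums were also higher in males (5371 and 4831 against 4083 and 3817), while the neutrophil sums overlapped (321 and 416 against 457 and 296). The part of blood cells in the Cd24a and Car3 values was not tested. The site difference in males minus that in females was -0.47 ± 0.25 for Cd24a and -0.90 ± 0.51 for Car3 (limma interaction, adjusted p = 0.981 for both). For Foxa2 it was -0.45 ± 0.47 and for Hopx -0.23 ± 0.30, also with an adjusted p of 0.981. Of all genes 0 of 10729 (0%) passed in limma, and 405 had an unadjusted p under 0.05.

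The genes most like Cd24a, Hopx and Foxa2 were sought by Pearson's r of the deviations from the site mean over the 8 libraries, among 10728 genes, as a description of these libraries. For Cd24a they were Stub1, Ndufv1 and Syf2 (0.994 to 0.988), for Hopx Vps26b, Tmem176b and Zfp764 (0.986 to 0.965) and for Foxa2 Rnf19a, Impact and Atf3 (0.963 to 0.952). None of these 3 lists shared a gene with another, and all points share the same 8 libraries and their depth.

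**Figure D5:**
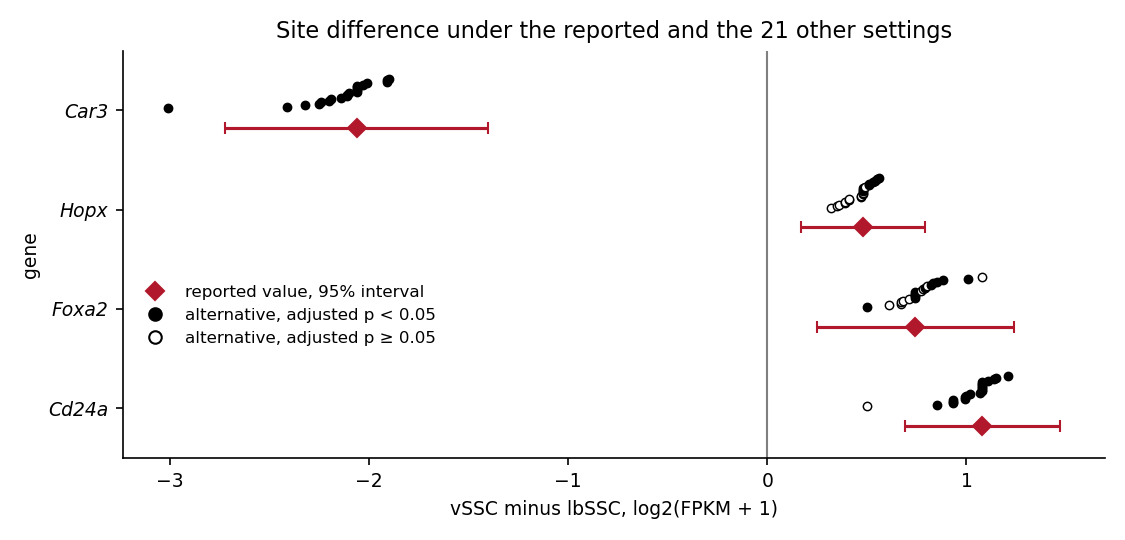
Site difference (vSSC minus lbSSC, log2(FPKM + 1)) of the 4 genes, with the reported value and its 95% interval as a diamond and each of 21 other settings as a circle, filled where the adjusted p was under 0.05. All circles keep the sign of the reported value; 10 circles of Foxa2, 9 of Hopx and 1 of Cd24a are open.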

How the data were processed

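Per the labels' protocols, SMART-Seq v4 and Nextera XT kits were used, and the submitters' processing notes name bcl2fastq 2.19, STAR 2.5.2, Cufflinks 2.1.1 and genome build GRCm38, with no settings in the sources read here. The values deposited by the authors are FPKM, in which more of a few abundant transcripts means less of all others. Groups, replicate numbers and sex came from the labels, and listed starts were raised by 1 to count from 1. The log2(FPKM + 1) values were fitted with limma 3.58.1 in R 4.3.3 (empirical Bayes with a variance trend, no covariate), after the procedure was tested on simulated data. Genes under the filter were tested by exact permutation in SciPy 1.17.1. Similar transcripts of GENCODE M21 were found with BLAST 2.17.0 (at least 90% identity over 200 bases). The genes, lists and tests were chosen with earlier results of these data known. All 10 genes were named. From other lists up to 4 called genes with the smallest p were named, with some fixed by name and those at 0 in all libraries. Chrd, Gpc3, Dhh, Des, Krt5, other markers under the filter and the sorting markers add to them after their values were seen. Alternatives were other pseudocounts, filters, scalings, weights and covariates, a block for the replicate number, and fits without a library. Ahsp, Acta1 and Foxf1 matched no row used. Of 8 chondrocyte markers 2 were higher in vSSC, against 14.3% of all genes tested, and 5 of 5 endothelial markers were under 1 FPKM. The genes most like Car3 are not reported here.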

Additional observations from a re-analysis of the deposited data

Results flagged for a closer look

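In 6 of 78 groups of 4 libraries with any spread, 1 library lay far from the other 3 by Dixon's ratio of gap to range, past its 95% critical value, where chance gives about 1 in 20. Shh was flagged for its single value, 0.0211 FPKM in lbSSC replicate 2, with the other 3 lbSSC libraries listed at 0. In vSSC replicate 1, Ebf1 stood at 10.3 FPKM and Lpl at 1.78, each the highest of its group. Camp stood at 37.8 FPKM in vSSC replicate 3. In lbSSC replicate 1, Cd79b stood at 1.02 and Col10a1 at 405 FPKM. None of the 4 genes of the set with values above 1 FPKM was flagged. The gap of Foxa2 in vSSC replicate 4, the widest to the eye, stayed under that value.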

How the results depend on the processing

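The 4 genes above 1 FPKM kept their direction in all 21 alternatives, and the call of Car3 held in all of them (adjusted p up to 0.00866), with a difference of -3.01 when the ribosomal protein share entered the fit. The difference of Foxa2 was 0.67 with median-of-ratios scaling (adjusted p = 0.0652), 0.71 with quantile normalization (0.06), 0.61 with rescaling to one sum (0.0957), 0.74 with no filter (0.0868) and 1.08 when the ribosomal protein share entered the fit (0.122). Hopx differed by 0.35 with rescaling to one sum (0.0814), 0.39 with library weights (0.0528), 0.48 with no filter (0.0502), 0.32 with the ribosomal protein share (0.525) and 0.36 without vSSC replicates 1 and 3 together (0.185), and Cd24a by 0.50 with that share (0.114). The share and the joint removal were chosen after the data were seen. With 1 library left out, Foxa2 ran from 0.50 to 0.88, Hopx from 0.39 to 0.54, Cd24a from 0.93 to 1.21 and Car3 from -2.41 to -1.90, and the count of called genes from 1534 to 2991, against 623 with that share and 1095 after the joint removal. The cause was not tested. T, Shh, Krt8, Krt18 and Krt19 kept their direction and did not pass the exact permutation test under other pseudocounts and 2 other scalings. For T, Shh and Krt19 that outcome was fixed in advance by how few libraries had a value. Of the 38 called genes in the lists, 0 changed direction under the 3 other scalings and 6 lost their call under at least 1, namely Foxa2, Hopx, Gpc3, Gli2, Lpl and Ptch1. No label ties replicate numbers across sites, and deviations of same-numbered libraries had r of 0.26, -0.09, -0.06 and 0.44, with 2 of 4 matching best with their own number. With the replicate block, 3194 genes were called and the differences were unchanged, with adjusted p = 0.00019 for Cd24a, 2.96e-05 for Car3, 0.011 for Foxa2 and 0.0251 for Hopx. Depth limits the 6 genes near 0, where a value of 0 does not show absence.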
